A study of Sus scrofa with 6 samples.

Results

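Cytosolic ribosomal protein genes encode the proteins that, with ribosomal RNA, form the small and large subunits of the ribosomes in the cytoplasm. This account covers the 7 such genes *RPLP2*, *RPS13*, *RPS15*, *RPS28*, *RPL36*, *RPS23* and *FAU*. They were found by joining the transcripts of the deposited tables to gene symbols through the NCBI Sus scrofa Annotation Release 106 and keeping the locus on chromosome 2, a rule that uses no measured value. They are 7 of 2675 chromosome 2 genes and of 30434 genes with a listed transcript. RNA was sequenced from whole pig embryos of the Landrace x Yorkshire x Duroc (LYD) strain at embryonic day 21, 3 per group. Parthenogenetic (PA) embryos came from oocytes that were matured in vitro, activated by electric pulses without sperm and carried by surrogate gilts, and their diploid genome is maternal only. Control (CN) embryos were untreated, came from natural mating and carry a maternal and a paternal genome. The comparison therefore asks how transcripts differ with no paternal genome, but in vitro maturation and transfer went with parthenogenesis in every PA embryo and the effects of these cannot be told apart. The labels give no sex and do not tie embryos to gilts, so p-values measure the spread between these 6 embryos.

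Each ribosome needs one copy of most ribosomal proteins, and the genes for them are transcribed in nearly all cells, at high levels in growing tissue. In mammals the mRNAs typically begin with a C followed by an uninterrupted run of pyrimidines, the 5′ terminal oligopyrimidine (TOP) motif, through which their translation responds together to growth signals. RNA-seq measures the amount of these mRNAs and not their translation or the number of ribosomes. In a whole embryo, fewer cells of a type and less RNA per cell cannot be told apart.

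The deposited tables held 3100284 to 3573406 estimated counts per embryo, and 82.8% to 92.7% of them fell on chromosome 2 genes. A single noncoding transcript without an entry in the annotation took a further 6.88% to 7.74% in CN and 8.44% to 16.9% in PA embryos. Of 69 cytosolic ribosomal protein genes on other chromosomes, 57 were listed at 0 in all 6 embryos and 6 exceeded 3 counts in any embryo. These genes are not analysed here, and TPM (a level per transcript length, scaled to the same sum in every embryo) is thus relative to a set of transcripts that is nearly all from chromosome 2. *RPS14*, also on chromosome 2, is given for comparison. All 7 genes passed the expression filter, which left 1652 genes for testing.

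The sequences around the annotated start of each gene are shown because a shared TOP motif would lie there. Each line gives 15 bases before and 15 bases from the first base of the most abundant transcript, as annotated by RefSeq on Sscrofa11.1. The strand shown is the one with the sequence of the mRNA. Capitals mark the longest run of at least 5 pyrimidines (C or T) that begins with C.
RPLP2: cccccgcgccggcgtCTTCCTTTCTgtccc
RPS28: ggcacgtgaCTCCTCTCCgccagaccaccg
RPL36: tccgcgcggtggaggCCCTTCCgccgcggc
RPS13: cacggtggCTTCCTgcggcgctcccacctc
FAU: gctcagcgCTCTCaccagccgccgtagccc
RPS15: tcccgggctcgcgcaggcggaagtagagca
RPS23: tcaggcccgtggcgccggcaggatgggtga

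The windows are chr2:507876-507905 (+) for *RPLP2*, chr2:70954758-70954787 (−) for *RPS28*, chr2:73288498-73288527 (−) for *RPL36*, chr2:42030570-42030599 (+) for *RPS13*, chr2:7070888-7070917 (+) for *FAU*, chr2:77044735-77044764 (−) for *RPS15* and chr2:90680667-90680696 (−) for *RPS23*. In *RPLP2* and *RPL36* the run began at the annotated first base, with lengths of 10 and 7 bases. In *RPS28* a run of 9 bases began 6 bases earlier and extended over the start, whereas the runs of *RPS13* and *FAU* ended before it. *RPS15* and *RPS23* had no such run in this window. Their annotated transcripts hold 0 and 7 bases before the coding sequence, compared with 356 for *FAU*, so the annotated start need not be the site where transcription begins. Such a run was present in 5 of the 7 windows (71.4%) and in 35.4% of the windows of 1998 protein-coding genes of chromosome 2, and it lay over the start in 3 of 7 (42.9%) and in 8.56%, respectively. *RPS14* held none. The letters were searched only on the strand with the sequence of the mRNA, and a match is a description of the sequence.

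*RPLP2* encodes P2, one of the acidic proteins of the stalk of the large subunit that recruits elongation factors. The gene spans chr2:507891-509818 on the plus strand and its mRNA of 447 bases has 5 exons. *RPLP2* TPM was 39316, 30674 and 33358 in CN1 to CN3 and 36636, 36407 and 36393 in PA1 to PA3. The PA values lay between the lowest and the highest CN value, and the CN mean was 34449 ± 4423 against 36479 ± 137 for PA (SD, n = 3). The log2 fold change of PA over CN was 0.14 (SE 0.15, adjusted p = 0.652 with edgeR's quasi-likelihood test).

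*RPL36* encodes another protein of the large subunit and lies at chr2:73286906-73288512 on the minus strand, with 4 exons. *RPL36* TPM was 24584, 19091 and 20981 in CN and 22765, 27480 and 24346 in PA. The PA mean of 24864 ± 2400 compared with 21552 ± 2791 for CN (SD, n = 3), and 1 CN embryo exceeded 2 of the 3 PA embryos. Its log2 fold change of 0.26 (SE 0.15, edgeR adjusted p = 0.393) was the largest of the 7 and passed neither threshold.

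Of the small subunit proteins, that encoded by *RPS13* contacts the central domain of the ribosomal RNA and those encoded by *RPS15* and *RPS28* lie in the head of the subunit. *RPS13*, at chr2:42030585-42033382 on the plus strand with 6 exons, had 28047, 21542 and 23132 TPM in CN and 22628, 26583 and 25496 TPM in PA. *RPS15*, at chr2:77043329-77044749 on the minus strand with 3 exons, had 31571, 22881 and 28545 TPM in CN and 28636, 31081 and 28821 TPM in PA. In both genes CN1 was the highest and CN2 the lowest of all 6 embryos, with every PA embryo between them. The log2 fold changes were 0.09 for *RPS13* (SE 0.15, edgeR adjusted p = 0.785) and 0.15 for *RPS15* (SE 0.17, edgeR adjusted p = 0.662).

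*RPS28*, at chr2:70953706-70954862 on the minus strand, is the shortest of these transcripts, and 98.5% to 99.0% of its TPM was assigned to the transcript of 320 bases with 4 exons. *RPS28* TPM was 41892, 30376 and 32667 in CN and 33916, 46639 and 36610 in PA. PA2 was the highest and CN2 the lowest embryo. The PA mean of 39055 ± 6704 and the CN mean of 34978 ± 6096 (SD, n = 3) differed by less than the SD of either group. The log2 fold change was 0.21 (SE 0.19, edgeR adjusted p = 0.584).

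*RPS23* encodes a protein of the decoding centre of the small subunit and lies at chr2:90679038-90680681 on the minus strand, with 4 exons. *RPS23* TPM was 27094, 16919 and 18390 in CN and 22599, 21323 and 19230 in PA. CN varied most in this gene, with a coefficient of variation of 26.4% compared with 8.08% in PA. Its log2 fold change of 0.07 had the largest SE of the 7 (0.23, edgeR adjusted p = 0.890).

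*FAU* encodes a ubiquitin-like protein fused to RPS30, from which the ribosomal protein is cleaved. It lies at chr2:7070903-7072811 on the plus strand, with 5 exons. *FAU* TPM was 9740, 8059 and 8858 in CN and 8525, 10131 and 9027 in PA. Its PA and CN means were 9227 ± 821 and 8886 ± 841 (SD, n = 3), respectively, and the log2 fold change was 0.11 (SE 0.14, edgeR adjusted p = 0.690).

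**Figure D1:**
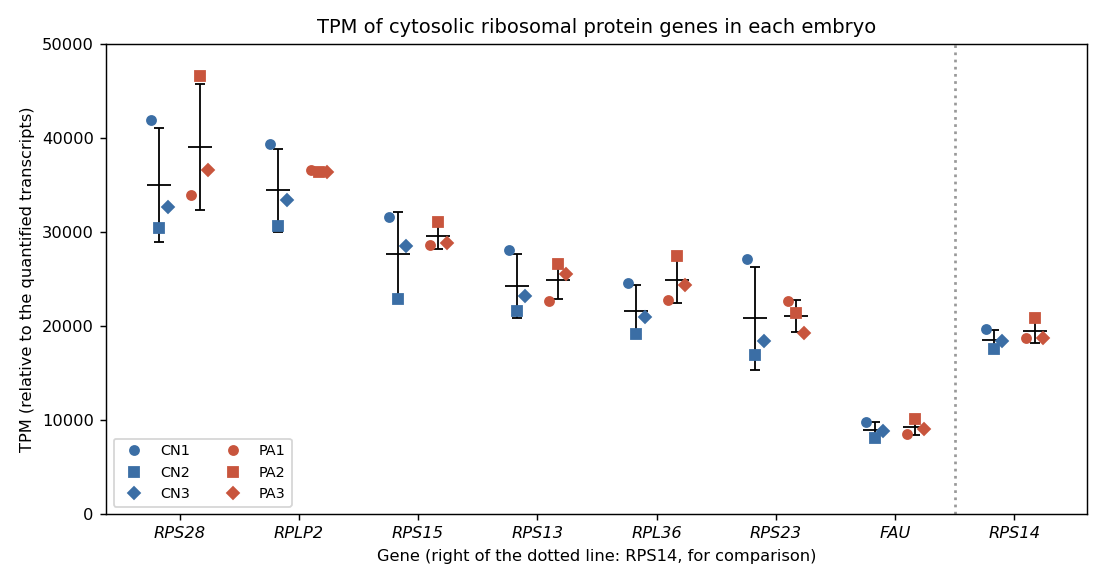
TPM (vertical axis) of the 7 genes and, right of the dotted line, of *RPS14*, in 3 CN (blue) and 3 PA (red) embryos. Each marker is 1 embryo, and the horizontal dash and bar are the group mean ± SD. The groups overlap in all 8 genes, and CN2 is the lowest embryo in all 7 genes left of the line.

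None of the 7 genes was differentially expressed (adjusted p below 0.05, edgeR), compared with 108 of the 1652 genes tested (6.54%). With the additional requirement of a 2-fold change, 48 genes (2.91%) passed and again 0 of 7. None of the 7 reached an unadjusted p below 0.05 with edgeR, compared with 350 of all genes tested (21.2%). DESeq2 also called 0 of 7, and 173 genes overall (10.5%). In TPM, the groups overlapped in all 7 genes, whereas 357 of the genes tested (21.6%) had no overlap in one or the other direction. The exact two-sided permutation test of log2(TPM + 0.1) gave p from 0.3 for *RPL36* to 0.9 for *RPS13* and *RPS23*. Its smallest possible p with 3 embryos per group is 0.1.

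The interval of the difference bounds what these embryos could show. The 95% intervals of the log2 fold change ran from −0.46 to 0.60 in *RPS23*, the widest, and from −0.20 to 0.43 in *FAU*, the narrowest. Across the 7 genes, the lowest bound corresponded to a fold of 0.725 and the highest, in *RPS28*, to a fold of 1.57. A difference of 2-fold in either direction was outside the interval of all 7 genes, as it was for 1288 of the genes tested (78.0%). No difference from 0 was shown for any of the 7, and smaller differences in either direction remain within the intervals. The fold change was positive in 7 of 7 genes, compared with 875 of all genes tested (53.0%), with a median log2 fold change of 0.14 and 0.02, respectively. This direction rested on few embryos. Without CN2 it was positive in 4 of 7, compared with 53.6% of the genes tested in that fit. Without CN1 all 7 had an unadjusted p below 0.05 with edgeR, compared with 397 of 1690 genes (23.5%), and a median log2 fold change of 0.34, compared with 0.03 over all genes. The edgeR adjusted p ran from 0.061 upward, so that again none was called. With 1 embryo left out, the log2 fold change ranged from 0.03 to 0.33 in *RPLP2*, from 0.14 to 0.45 in *RPL36*, from 0.06 to 0.45 in *RPS28* and from 0.01 to 0.27 in *FAU*. In each of these genes it was highest without CN1, and it was lowest without CN2 except in *RPS28*, where leaving out PA2 gave the lowest value.

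**Figure D2:**
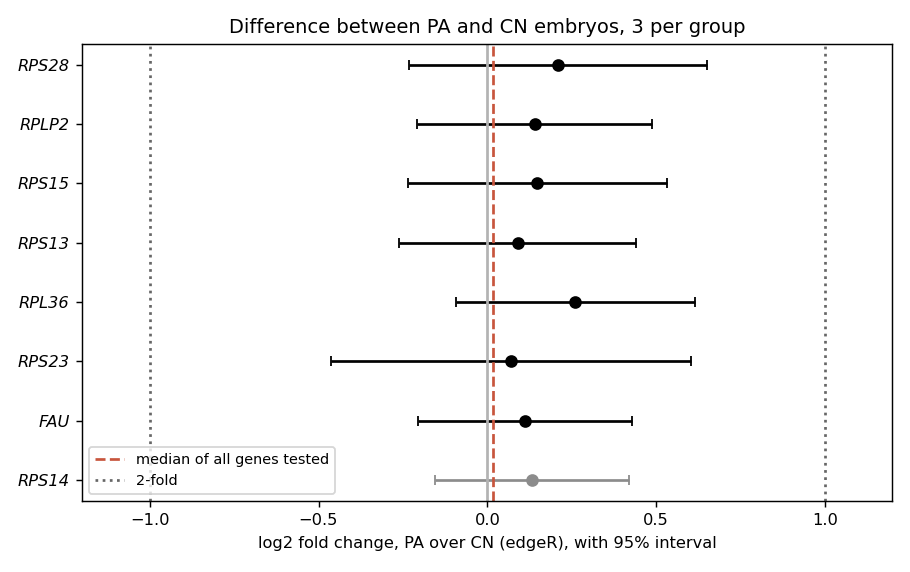
Log2 fold change of PA over CN (horizontal axis; edgeR, 3 embryos per group) with its 95% interval for the 7 genes (black) and *RPS14* (grey). The dashed line is the median of all genes tested, 0.02, and the dotted lines mark 2-fold. Every interval includes 0 and lies within the dotted lines.

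The 7 genes were among the most abundant of chromosome 2. By mean TPM over the 6 embryos, *RPS28* ranked 1 of the chromosome 2 genes, *RPLP2* 2, *RPS15* 4, *RPS13* 5, *RPL36* 7, *RPS23* 9 and *FAU* 16. Neighbours in this order did not always differ. *RPS28* exceeded *RPLP2* in 3 of 6 embryos, *RPS13* exceeded *RPL36* in 4 and *RPL36* exceeded *RPS23* in 5, whereas *RPLP2* exceeded *RPS15*, and *RPS15* exceeded *RPS13*, in 6 of 6. Only *FAU* had a range apart from that of its neighbour, with mean TPM of *RPS23* 2.31 times higher. Within an embryo, the highest of the 7 exceeded the lowest, which was *FAU* in each, by 3.77 to 4.60 times. Estimated counts gave another order, since the effective length, the number of positions at which a fragment can start, was 147 bases on average in *RPS28* and 624 in *FAU*. *RPS28* had 8383 to 14408 counts and *FAU* had 9160 to 13270, although their TPM differed several-fold.

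Together the 7 genes held 20.2%, 14.95% and 16.6% of TPM in CN and 17.6%, 19.96% and 18.0% in PA. CN2 was the lowest and CN1 the highest of the 6 embryos. The PA embryos averaged a summed TPM of 185090 ± 12779 and the CN embryos 172572 ± 26972 (SD, n = 3), a ratio of 1.07. In estimated counts, where short transcripts weigh less, the same genes made up 2.44% to 3.58% of an embryo's total.

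The genes moved together from embryo to embryo. In counts normalized for depth and length, all 7 were highest among CN in CN1, lowest of all 6 embryos in CN2 and lowest among PA in PA3. Centred on each gene's own mean over the embryos, the mean of the 7 on the log2 scale was 0.29 in CN1, −0.38 in CN2, −0.16 in CN3, 0.14 in PA1, 0.19 in PA2 and −0.08 in PA3. CN1 and CN2 were thus farther apart than the group means of any of the 7 genes. *RPS13* followed the mean profile most closely, with a root mean square difference of 0.05 on the log2 scale. *RPS23* departed most (0.13, with CN1 above the others by 0.21), followed by *RPS28* (0.09, with PA2 above by 0.19).

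Library properties moved with part of this pattern. The difference between a transcript's length and its effective length, which grows with the fragment length of the library, was 190.0 bases in CN1, 174 in CN2, 180 in CN3, 189 in PA1, 182 in PA2 and 179 in PA3. It was largest and smallest in the same embryos as the mean of the 7 genes. Among 80 other tested genes whose effective length was no longer than that of *FAU*, the median centred value was 0.27 in CN1, −0.06 in CN2, 0.05 in CN3, 0.08 in PA1, −0.10 in PA2 and −0.17 in PA3. It had the sign of the mean of the 7 genes in CN1, CN2, PA1 and PA3 and the opposite sign in CN3 and PA2. The median of 1559 longer genes stayed within 0.02 of 0 in every embryo. The part of fragment length in the profile was not tested.

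**Figure D3:**
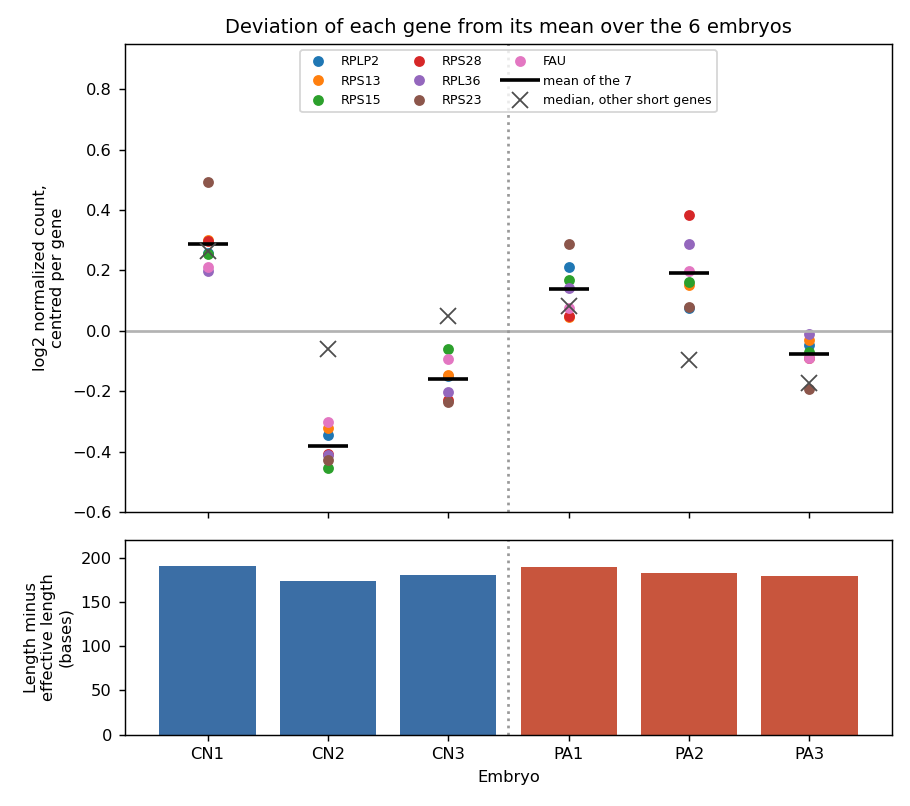
Upper panel: log2 normalized count of each of the 7 genes, centred on its mean over the 6 embryos (vertical axis), by embryo, with the mean of the 7 (black dash) and the median of 80 other short genes (cross). Lower panel: transcript length minus effective length in bases, with CN in blue and PA in red. The mean of the 7 genes is highest in CN1 and lowest in CN2, and each of the 7 is lowest in CN2.

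Among 1416 tested genes outside the family with a mean count of at least 10 CPM (reads scaled to the same library total), 5 came closest to the mean profile of the 7 over the 6 embryos. These were *SRP19*, a protein of the signal recognition particle (root mean square difference 0.08 on the log2 scale), LOC100523526 (0.08), *TRMT112*, a partner of several methyltransferases (0.08), *NUCB2*, the calcium-binding precursor of nesfatin (0.08), and *RACK1*, a scaffold protein on the small subunit (0.08). The median over the 1416 genes was 0.28. All 6 embryos are shared by these profiles, so that library effects common to them are included.

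LOC100523526 is a copy of *RPS23*, and its reads bear on the value of that gene. It lies on chromosome 1 (chr1:113345869-113346376, minus strand) as 1 exon inside *ADAM10* and outside the exons of that gene. Over the 444 bases of the *RPS23* mRNA the copy was 98.9% identical, with 5 differences and no gap. Counted from the 5′ end of the *RPS23* mRNA, these were G21A, G35T, G57A, G164A and G363A, with the base of *RPS23* first. The first 65 bases of the coding sequence (positions 8 to 72) carry 3 of the 5, in capitals.
RPS23: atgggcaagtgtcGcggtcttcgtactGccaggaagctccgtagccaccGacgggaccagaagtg
LOC100523526: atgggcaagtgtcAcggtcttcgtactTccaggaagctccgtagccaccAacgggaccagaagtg

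Of 345 windows of 100 bases in the *RPS23* mRNA, the read length, 106 (30.7%) were identical in the copy. Fragments were read from both ends, so this is not the share of fragments that match both loci, which was not counted. Salmon divides reads that match several transcripts by an estimate. The copy was given 2309, 1537 and 1894 counts in CN and 2457, 2235 and 2070 in PA. This was 13.5% to 16.5% of the counts of both loci, and 65.7% to 78.9% of all counts on chromosome 1. When the loci were summed, the log2 fold change was 0.09 (95% interval −0.43 to 0.60, edgeR adjusted p = 0.858), compared with 0.07 for *RPS23* alone. *RPS23* had 8 copies with at least 80% coverage and 90% identity in the genome, of which the other 7 had at most 1 count in any embryo. *RPS13* and *RPLP2* had 1 each with 96.2% and 92.7% identity, and *RPS15*, *RPS28*, *RPL36* and *FAU* had none.

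*FAU* also shares sequence, with *MRPL49*, a mitochondrial ribosomal protein gene on the opposite strand (chr2:7066514-7071812). Their most abundant transcripts have 102 exon bases in common. Over all annotated transcripts the shared exon bases are 556, compared with 806 bases in the *FAU* mRNA. The library protocol does not select a strand, so reads there cannot be told apart. *MRPL49* had 1593 to 1861 counts, compared with 9160 to 13270 for *FAU*. The summed counts of both had a log2 fold change of 0.10 (edgeR adjusted p = 0.715).

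*RPS14*, which encodes a protein of the platform of the small subunit, had TPM close to that of *RPS23*. It averaged 19434 ± 1232 in PA embryos and 18518 ± 1060 in CN embryos (SD, n = 3). CN2 was again the lowest embryo and PA2 the highest, and the groups overlapped. The log2 fold change was 0.13 (SE 0.13, edgeR adjusted p = 0.594), and it was 0.06 without CN2 and 0.26 without CN1.

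Other genes of the translation machinery on chromosome 2 were compared in the same fit. Of 11 genes on a list of translation factors, 0 were called by edgeR (6.54% of all genes tested), and 10 had a positive fold change (53.0% of all genes tested), with a median of 0.09. Among them, *NAP1L4* (log2 fold change 0.04), encodes a histone chaperone and not a translation factor. With edgeR 2 of the 11 had an unadjusted p below 0.05 (21.2% of all genes tested), and DESeq2 called 1 (10.5% of all genes), so neither share was far from the background. The most abundant were *RACK1*, *EEF1G*, a subunit of the exchange factor of elongation factor 1, and *EEF2*, the elongation factor of translocation. *EEF1G* TPM was 20062, 19248 and 19954 in CN and 21535, 24991 and 23732 in PA. Every PA embryo exceeded every CN embryo, and the log2 fold change was 0.31 (SE 0.11, edgeR adjusted p = 0.140). *EEF2* had 14829, 16734 and 17229 TPM in CN and 16927, 21468 and 20763 TPM in PA, with a log2 fold change of 0.34 (SE 0.10, edgeR adjusted p = 0.0899). Its groups overlapped by 1 embryo of each, and DESeq2 gave an adjusted p of 0.00663. *RACK1* averaged 25129 ± 1171 TPM in PA embryos and 22423 ± 1505 in CN embryos (SD, n = 3), and its groups overlapped.

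Of 9 ribosome biogenesis genes, 0 were called by edgeR, with 0 at an unadjusted p below 0.05 (21.2% of all genes tested), and 4 had a positive and 5 a negative fold change (median −0.03). *NHP2*, of the small nucleolar particles that guide pseudouridylation, averaged 784 ± 56.4 TPM in PA embryos and 849 ± 79.3 in CN embryos. *DDX46*, although on this list, encodes a helicase known for pre-mRNA splicing, and *DDX49* encodes another helicase. They averaged 559 ± 121 and 224 ± 7.89 TPM in PA, against 604 ± 44.7 and 239 ± 13.2 in CN embryos (SD, n = 3). DESeq2 called none of these genes.

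The 8 mitochondrial ribosomal protein genes, whose products form the separate ribosomes of mitochondria, were likewise not called by edgeR or DESeq2, and 0 had an unadjusted p below 0.05 with edgeR (21.2% of all genes tested). Of these, 7 had a negative fold change (median −0.08; 53.0% of all genes tested had a positive one), and 4 of 8 had TPM groups without overlap (21.6% of all genes tested, as above). *MRPL55* averaged 1229 ± 125 TPM in PA embryos and 1291 ± 202 in CN embryos, *MRPL23* averaged 1137 ± 88.2 and 1366 ± 38.4, and *MRPL11* averaged 657 ± 31.6 and 704 ± 11.6 (SD, n = 3), respectively. The difference between these lists and the cytosolic genes was not tested.

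**Figure D4:**
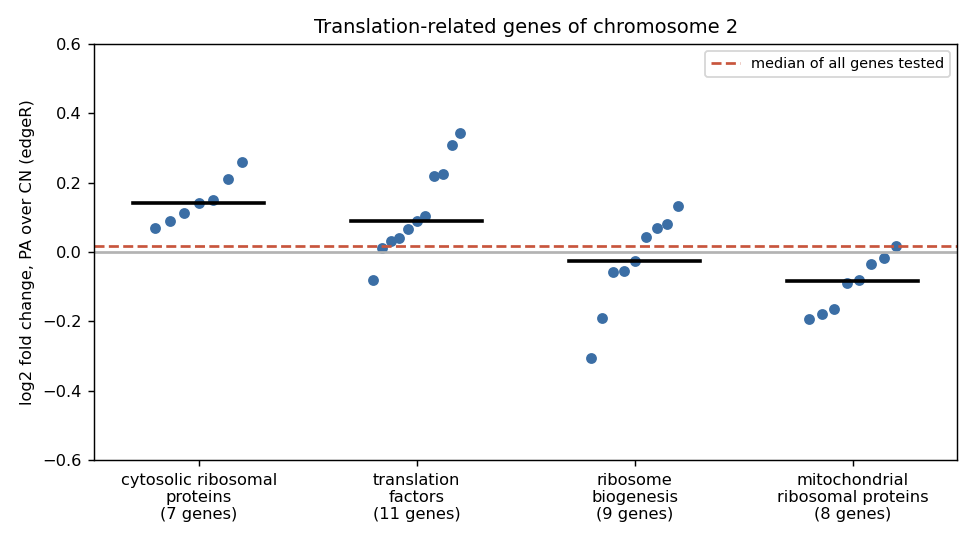
Log2 fold change of PA over CN (vertical axis; edgeR, 3 embryos per group) for chromosome 2 genes of the cytosolic ribosome and the lists of translation factors, ribosome biogenesis and the mitochondrial ribosome. Each point is 1 gene, the bars are list medians and the dashed line is the median of all genes tested. The medians are 0.14 for the 7 cytosolic genes, 0.09 for translation factors, −0.03 for ribosome biogenesis and −0.08 for mitochondrial ribosomal proteins.

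Markers of other cell types on chromosome 2 were summed per embryo, and their part in the values above was not tested. The summed TPM of 3 erythroid markers of 12 that lie on chromosome 2 was 260.1 to 441 in CN and 205 to 261 in PA, so that the groups overlapped. Of the 3, edgeR called 0, with 2 at an unadjusted p below 0.05 (21.2% of all genes tested). DESeq2 called 1 (10.5% of all genes). For macrophages and leukocytes, 9 of 13 markers gave 423 to 904 in CN and 351 to 409 in PA, without overlap of the sums. Of the 7 tested, edgeR called 2, both lower in PA (6.54% of all genes tested were called in either direction), and DESeq2 called 3 (10.5% of all genes). For trophoblast and endometrium, 2 of 13 markers gave 92.4 to 132 in CN and 142 to 284 in PA, again without overlap. These sums came mostly from *ACP5* (212 ± 74.7 TPM in PA against 104 ± 15.8 in CN embryos, SD, n = 3). Of the 2, edgeR called 0, with 1 at an unadjusted p below 0.05 (21.2% of all genes tested). DESeq2 called 1 (10.5% of all genes). No marker on chromosome 2 was at 0 in all 6 embryos.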

How the data were processed

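RNA-seq (TRIzol, poly(A) selection, TruSeq v2, 100 nt paired ends) was performed on 6 whole embryos, 3 PA and 3 CN, grouped by their titles. The authors quantified reads with Salmon (1.3.0) and deposited, per embryo, estimated counts and TPM for 81496 transcripts of Sscrofa11.1. The deposited TPM values are scaled by Salmon per effective length over all listed transcripts. The deposited effective lengths (another kind of value, in bases) gave the length offset.

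Counts and TPM were summed per gene. Estimated counts were rounded and tested with edgeR (4.0.16): TMM factors, filterByExpr (minimum count 10), length offset, quasi-likelihood test, Benjamini-Hochberg adjustment over 1652 genes. A gene with 3 counts had 0.84 to 0.968 CPM at these depths, which were 3100284 to 3573406 counts. Sequences were read from the reference genome, copies were found with BLAST+ (2.17.0), and scripts were tested on simulated data. Genes were named by a rule: all 7 genes, other chromosome 2 genes of the family (some are not reported here), the 3 highest by TPM of each related list without a call, and the 5 genes nearest to the mean profile. Members and lists were chosen with earlier results of these data known. Alternatives were DESeq2 (1.42.0), other filters and scalings, a replicate block and leaving out each embryo. Same-group embryos differed beyond sampling noise (chi-square per degree of freedom 5.88 to 97.4).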

Additional observations from a re-analysis of the deposited data

How the results depend on the processing

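Of 303 alternative values of 26 results, 280 kept their direction and side of the threshold, 13 reversed and 10 counts moved by over 1.5 times. The 280 include values that could not differ, since the TPM ratio does not use the pseudocount that was changed to 1. They also include the ratios with transcripts under 1 TPM left out, which were unchanged in each of the 7 genes. The log2 fold change reversed in *RPS13* (−0.025), *RPS15* (−0.0039) and *RPS23* (−0.095) without CN replicate 2, and in *RPS23* also without CN replicate 3 (−0.021) and PA replicate 1 (−0.044). The highest values of these 3 genes, without CN replicate 1, were 0.30, 0.34 and 0.41. The TPM ratio of PA over CN fell below 1 in 8 cases with 1 embryo left out. It ranged from 0.973 to 1.11 in *RPS13* (below 1 without CN2, and 0.993 without PA2), from 0.982 to 1.15 in *RPS15* (below 1 without CN2), from 0.926 to 1.19 in *RPS23* (below 1 without CN2, 0.957 without CN3 and 0.9748 without PA1) and from 0.988 to 1.09 in *FAU* (below 1 without PA2, and 0.992 without CN2). Over the fits that left out 1 embryo, 4 to 7 of the 7 genes had a positive fold change, and the number of all genes called was 48 to 128, with 34 to 52 beyond 2-fold. DESeq2 called 173 genes and 1 of the related lists (*EEF2*). Without the expression filter 196 genes were called, 77 beyond 2-fold, and 2 of the related lists (*EEF1G* and *EEF2*). The causes were not tested. No alternative called any of the 7 genes, and their 95% intervals lay within 2-fold in each edgeR alternative. The ratio of summed TPM was 1.07, and 1.11 with the scaling of the edgeR fit. It was 1.16 when TPM was rescaled to the total without the 10 most abundant transcripts. Of these 10, 6 are transcripts of the 7 genes and stayed in the summed TPM, so their own level enters this scaling. The scaling of the edgeR fit and the sums with the copy of *RPS23* and with *MRPL49* were chosen after seeing the data.

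Deviations of same-numbered PA and CN embryos correlated at 0.305, 0.147 and 0.0720 over 1652 genes, so the numbers were not taken to pair the embryos. With the replicate block, 104 genes were called, 43 beyond 2-fold, and 0 of the 7. Each of the 7 genes had at least 7571 counts per embryo, and 3 embryos per group limit the precision.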

Other observations

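Chromosome 2 also carries 5 loci that the annotation names as copies of ribosomal proteins whose genes lie elsewhere. They had few counts: LOC106509418, named for RPS4X, had 1 to 7, LOC100525679, named for RPL39, had 0 to 2.13, LOC100627645, an *RPL29* pseudogene, had 0 to 1, and LOC100514563 (RPS15A) and LOC102165880 (RPL4) had 0 in every embryo. Of the 6 cytosolic ribosomal protein genes of other chromosomes with more than 3 counts in any embryo, 4 share a name with one of these loci. *RPL39* had 65.9 to 112 counts, *RPS15A* 10.2 to 21.5, *RPL29* 5 to 13.04 and *RPS4X* 0 to 4. The others were *RPS2* with 2.62 to 14.1 and *RPL24* with 1 to 4. How reads reached these genes was not tested.

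In *RPS14* the TPM was divided between transcripts (3 are annotated). The share of the most abundant was 53.6% to 63.2% over the 6 embryos, with means of 59.5% ± 4.71 in PA and 59.8% ± 5.39 in CN (SD, n = 3).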
